A study of Mus musculus with 12 samples.

Results

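The comparison set resting B (RB) cells stimulated through CD40 against RB cells stimulated through CD86, with the TLR-2 ligand Pam2CSK4 present in both. Its arrays were chosen by their labels alone. They were 2 arrays of cells given anti-CD40 and Pam2CSK4 (TLR2.CD40) and 2 arrays of cells given anti-CD86 and Pam2CSK4 (TLR2.CD86), 4 of the 12 arrays collected. All arrays measured RNA of RB cells from the spleens of BALB/c mice, which the labels give as female and 6 weeks old, whereas the methods of the study allow either sex. The cells were obtained by removing CD43-bearing and other non-B cells and were stimulated for 4 h. Of the other 8 arrays, 4 held the same antibodies without Pam2CSK4 (anti-CD40 and anti-CD86, 2 arrays each) and 4 held unstimulated cells and cells given Pam2CSK4 alone. Both antibodies stood in for the natural partners of their receptors, and per the methods the biotinylated anti-CD86 was cross-linked with streptavidin. The labels do not say whether the 2 arrays of a condition came from separate mice. The p-values rest on a spread between arrays that is pooled over all 12 arrays, and this may not measure the spread between mice.

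CD40 belongs to the TNF receptor family. When CD40 ligand on a helper T cell engages it, TRAF adaptor proteins gather at its tail and switch on the canonical and the non-canonical NF-kB pathways, which drive B cell growth, survival and costimulatory capacity. CD86 is best known as the ligand that B cells offer to CD28 and CTLA-4 on T cells, and cross-linking it can also pass a signal into the B cell. Pam2CSK4 is a synthetic diacylated lipopeptide that TLR-2 recognises, and its signal runs through MyD88 and the IRAK kinases, also to NF-kB.

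Values are log2 processed signals minus the 75th percentile of the array, so that 0 is the brightness below which 75% of the probes lay. The arrays came on 2 slides. Both TLR2.CD40 arrays and TLR2.CD86 replicate 1 lay on slide 1, while TLR2.CD86 replicate 2 lay on slide 2, and 5650 probes were higher and 12412 lower on slide 2. The slide was therefore a term of the fit, and a difference was called at an adjusted p under 0.05. The 2 TLR2.CD40 arrays differed by a median of 0.085 in log2 signal and the 2 TLR2.CD86 arrays by 0.280. The B cell identity of the samples held on every array, with all 8 B cell markers (among them Cd79a, Cd79b, Ms4a1, Pax5, Cd22, Blnk and Cd74) well above background on all 12. Transcripts of liver were also measured, and they separated the TLR2.CD40 arrays from the rest, so immune genes and liver transcripts are described apart.

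Of 31602 probes tested, 10926 (34.6%) differed between TLR2.CD40 and TLR2.CD86, 6164 (19.5%) of them higher and 4762 (15.1%) lower in TLR2.CD40. Scaling the arrays by their median instead of the 75th percentile left 2106 calls, of which 35.8% were higher against 56.4% with the percentile. Within slide 1, where 1 TLR2.CD86 array remained, 6539 probes (20.7%) were called. Without the slide term 3888 (12.3%) were called, and without TLR2.CD86 replicate 1 5424 were. None of these settings called a probe in the opposite direction. Within slide 1 the residual spread came from the TLR2.CD40 and unstimulated pairs alone (2 degrees of freedom), with none from TLR2.CD86. These pairs had the smallest median differences between arrays of the 6 conditions, 0.085 and 0.072. The 2 TLR2.CD40 arrays lay wholly above or wholly below the 2 TLR2.CD86 arrays for 19246 probes (60.9%). Differences of at least 2-fold were fewer, with 676 probes higher and 662 lower. The arrays measured bulk RNA, in which fewer cells of a type and less RNA per cell cannot be told apart.

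The 13 lists of immune genes together held 390 tested genes. In TLR2.CD40 129 of them (33.1%) were higher and 80 (20.5%) were lower, against 19.5% and 15.1% of all probes. The higher genes were also the larger changes, with 25 at least 2-fold higher against 7 at least 2-fold lower. For all 129 higher genes the arrays of the 2 groups did not overlap, and for 80 of them both TLR2.CD40 arrays lay above all 10 other arrays. Of the 80 lower genes, 64 did not overlap and 16 lay below all 10 other arrays. Over all probes 60.9% did not overlap, and a called gene is likelier not to, so these counts add no support to the calls. The share of all probes beyond all 10 other arrays was not counted. These counts take no account of the slide, and slide 2, where more probes were lower than higher, held TLR2.CD86 replicate 2 and 3 of the other arrays. Without the slide term 77 of the 129 higher calls and 18 of the 80 lower calls remained, while 89 and 52 remained within slide 1. Without TLR2.CD86 replicate 1, 92 and 41 remained, and under median scaling 26 and 17. Under that scaling higher calls fell from 10 to 2 for NF-kB, 19 to 5 for surface molecules and 13 to 1 for cytokines. They fell from 12 to 3 for CD40 signalling and from 10 to 3 for the BCL2 family. For MYC and growth they fell from 16 to 6 and for immediate early genes from 17 to 3. Lower calls fell from 18 to 3 for B cell identity. The medians of the TLR-2, interferon, trafficking and antigen presentation lists, between 0.02 and 0.05, turned negative under median scaling. Of the 390 genes, 12 were saturated on all 4 arrays, among them Nfkbia, Cd83, Cd79b, Blnk, Nr4a1, H2-Ab1 and H2-K1, and no fold is given for those.

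**Figure D1:**
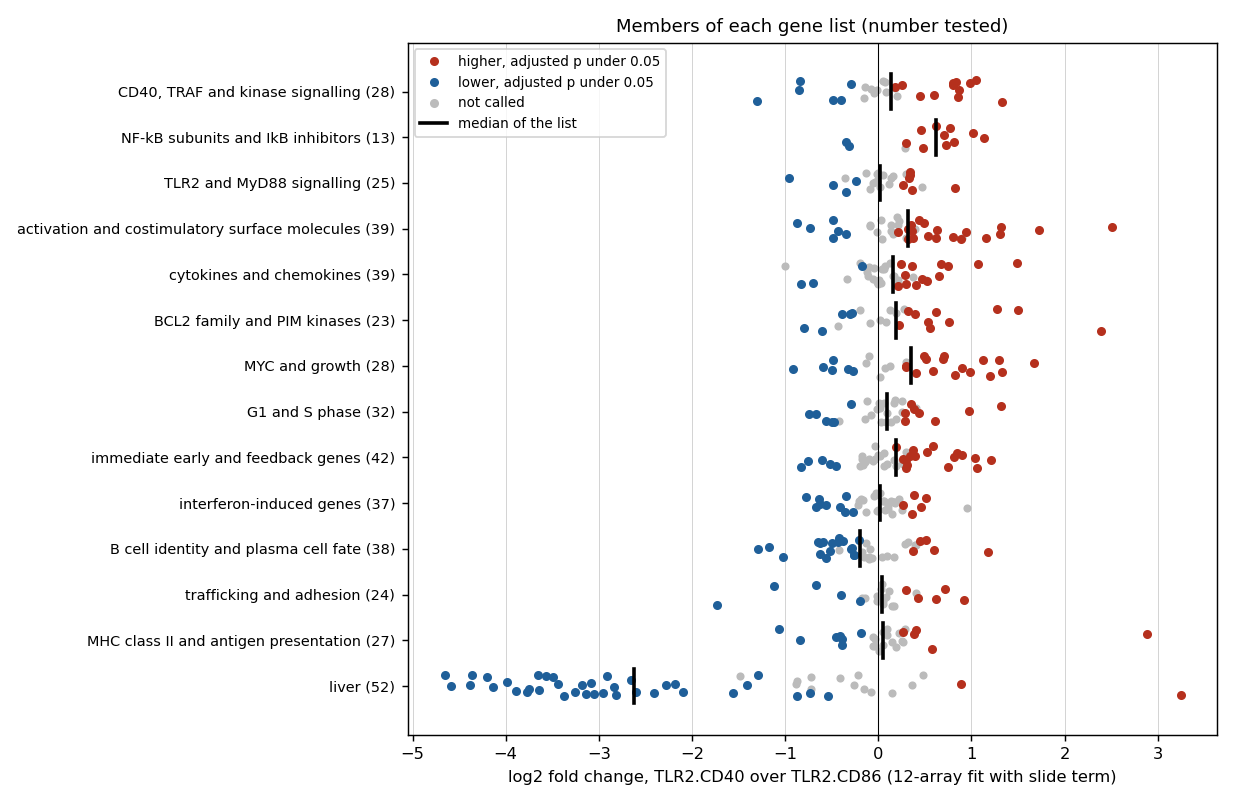
Each point is 1 gene of a list, placed by its log2 fold change of TLR2.CD40 over TLR2.CD86 in the 12-array fit; red points were called higher, blue points lower and grey points not at all, and the black bar is the median of the list, whose number of tested genes stands in brackets. The NF-kB list has its median at 0.62 and the liver list at -2.63, while the medians of the other lists lie between -0.19 and 0.35.

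Genes of the CD40 signalling apparatus differed in both directions. Of 28 tested genes in the list of CD40, TRAF adaptors and their kinases, 12 were higher and 6 lower in TLR2.CD40, with a median log2 difference of 0.13 against 0.04 over all probes. Traf1, an NF-kB-induced adaptor that binds TRAF2, read 4.69 and 4.81 on the TLR2.CD40 arrays and 3.42 and 3.24 on the TLR2.CD86 arrays. All 10 other arrays lay below both TLR2.CD40 arrays, and the log2 difference was 1.33 ± 0.06 (SE, adjusted p = 6.8e-05). Cd40 itself read 4.21 and 4.29 against 3.29 and 2.79, a difference of 0.99 ± 0.07 (adjusted p = 0.00022). The 2 further Cd40 probes gave 0.82 and 0.96. Birc3, a ubiquitin ligase bound to TRAF2, was higher by 1.05 ± 0.15 and its relative Birc2 by 0.86 ± 0.06. Brakes on the pathway were among the higher genes as well, with Tnfaip3, the deubiquitinase A20, higher by 0.80 ± 0.05 and the TRAF-binding Tank by 0.86 ± 0.06. Traf6, the adaptor that CD40 and TLR signalling share, was higher by 0.84 ± 0.06. Map3k14, the NIK kinase of the non-canonical pathway, was higher by 0.45 ± 0.07.

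The lower genes of that list were led by Traf5, an adaptor of the same receptor family. It read 3.85 and 4.05 on the TLR2.CD40 arrays and 5.29 and 4.99 on the TLR2.CD86 arrays, and was lower by 1.30 on the log2 scale (SE 0.09, adjusted p = 0.00018). Malt1, the paracaspase of antigen-receptor signalling, was lower with a log2 difference of -0.85 ± 0.07, and Traip, a ubiquitin ligase first found bound to TRAFs, with -0.84 ± 0.06. Traf3, which restrains NIK, was not called (0.20 ± 0.07, adjusted p = 0.065). The lower calls of this list numbered 3 without the slide term.

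The NF-kB subunits and IkB proteins had the median farthest from 0 among the 13 immune lists. Of 13 tested genes, 10 were higher and 2 lower in TLR2.CD40, and the median log2 difference was 0.62. Nfkbib, which encodes the inhibitor IkB-beta, read 5.94 and 6.02 on the TLR2.CD40 arrays against 4.86 and 4.50, a difference of 1.13 ± 0.06 (adjusted p = 0.00012). Nfkbie, which encodes IkB-epsilon, read 5.91 and 5.89 against 4.90 and 4.89, a difference of 1.01 ± 0.05 (adjusted p = 7.6e-05). For both genes the TLR2.CD40 arrays stood clear of the TLR2.CD86 arrays. The atypical nuclear IkB proteins followed, Nfkbid with 0.81 ± 0.07, Nfkbiz with 0.73 ± 0.07 and Bcl3 with 0.46 ± 0.06. Among subunits, Nfkb2, the precursor of p52 in the non-canonical pathway, read 5.63 and 5.67 against 4.94 and 4.51 and was higher by 0.71 ± 0.05 (adjusted p = 0.00025). Nfkb1, the precursor of p50, was higher by 0.77 ± 0.07 with 1 TLR2.CD40 array saturated, Rel by 0.62 ± 0.09, Relb by 0.48 ± 0.05 and Rela by 0.30 ± 0.06, the last with a second probe at -0.14. The lower pair, Nfkbil1 (-0.35 ± 0.07) and Ikbip (-0.31 ± 0.08), encodes proteins outside the subunit and inhibitor families proper. Under median scaling 2 genes of the list were called higher and none lower, while the median stayed at 0.53. Without TLR2.CD86 replicate 1, 9 genes of the list were higher and none of the lower pair was called, and Relb was not called without the slide term (adjusted p = 0.062).

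The start sites of the higher genes were searched for the NF-kB consensus motif on both strands. The search used RefSeq windows of GRCm38.p6 that run from 250 bases before to 50 bases after the start. Of the higher genes, 7 of the NF-kB list had a window and 5 of these held a match, as did 3 of 9 of the CD40 and TRAF list, against 9.55% of 27025 genes and 8.46% of 32851 windows. The windows of 3 NF-kB genes and of Il2ra, the surface gene with the largest difference, are printed to show where their matches lie, with matched bases in capitals. Of the 12 named genes with the highest differences, given below, 10 had a window and 3 held a match. Nfkbia, which was not called, held 1 match too. The genes were picked by their calls in these data, so the shares are a description, and a cause was not tested. A match is a description of the letters and not a measured binding site.

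Nfkb2 (chr19:46304487-46304786, plus strand): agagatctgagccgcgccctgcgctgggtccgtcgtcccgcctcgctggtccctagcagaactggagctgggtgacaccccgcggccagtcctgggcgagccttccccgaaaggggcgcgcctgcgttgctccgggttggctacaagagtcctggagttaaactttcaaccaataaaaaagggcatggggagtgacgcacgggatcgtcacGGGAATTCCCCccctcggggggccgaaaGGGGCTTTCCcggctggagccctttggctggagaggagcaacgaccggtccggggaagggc
Nfkbie (chr17:45555450-45555749, plus strand): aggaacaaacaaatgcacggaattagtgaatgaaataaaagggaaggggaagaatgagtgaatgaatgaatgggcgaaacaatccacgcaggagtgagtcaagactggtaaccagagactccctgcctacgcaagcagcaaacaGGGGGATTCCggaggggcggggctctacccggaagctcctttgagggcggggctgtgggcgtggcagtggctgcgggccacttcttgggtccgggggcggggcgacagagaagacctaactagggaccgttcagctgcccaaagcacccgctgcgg
Rel (chr11:23770920-23771219, minus strand): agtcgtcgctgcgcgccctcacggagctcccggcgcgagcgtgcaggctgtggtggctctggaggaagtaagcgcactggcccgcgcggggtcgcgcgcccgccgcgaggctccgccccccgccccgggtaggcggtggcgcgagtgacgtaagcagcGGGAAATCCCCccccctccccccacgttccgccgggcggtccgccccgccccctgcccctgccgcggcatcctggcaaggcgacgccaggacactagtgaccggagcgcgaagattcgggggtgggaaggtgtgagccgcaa
Il2ra (chr2:11642542-11642841, plus strand): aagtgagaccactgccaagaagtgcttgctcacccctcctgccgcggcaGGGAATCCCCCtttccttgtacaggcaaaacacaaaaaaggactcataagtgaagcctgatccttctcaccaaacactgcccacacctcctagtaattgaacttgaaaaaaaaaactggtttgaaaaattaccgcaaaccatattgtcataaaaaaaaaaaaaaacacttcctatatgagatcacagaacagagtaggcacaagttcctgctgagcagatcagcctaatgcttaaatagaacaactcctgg

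The Nfkb2 window is 1 of 3 listed for the gene and held 3 matching positions between -39 and -11 bases from the start. The match in Nfkbie lay at -106, that in Rel at -92 and that in Il2ra at -201.

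TLR-2 signalling genes differed little. Of 25 tested, 6 were higher and 4 lower, close to the share among all probes, and the median difference was 0.02. Tlr2 read 2.69 and 2.71 on the TLR2.CD40 arrays and 2.70 and 2.46 on the TLR2.CD86 arrays. Its groups overlapped, and the log2 difference was -0.01 ± 0.06 (adjusted p = 0.93). Of its partner receptors, Tlr1 was higher, with 2.34 and 2.49 against 1.61 and 1.34 (0.83 ± 0.07, adjusted p = 0.00038), and Tlr6 was not called (0.47 ± 0.19, adjusted p = 0.10). The shared adaptor Myd88 was not called (0.16 ± 0.07). Irak3, a kinase-dead inhibitor of the IRAK step, was lower with 0.08 and 0.09 against 1.096 and 0.69 (-0.96 ± 0.08), and its other 2 probes gave -1.108 and -1.096. Without TLR2.CD86 replicate 1 the list had 1 higher and 1 lower call, without TLR2.CD40 replicate 1 it had 3 and 2, and without TLR2.CD40 replicate 2 it had 4 and 1.

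Of 39 tested surface molecules of activation and costimulation, 19 were higher in TLR2.CD40, 6 were lower and 14 were not called, with a median of 0.31. Il2ra, the high-affinity chain of the IL-2 receptor (CD25), read 2.48 and 2.29 on the TLR2.CD40 arrays and -0.14 and -0.05 on the TLR2.CD86 arrays. That is a 5.69-fold difference (log2 2.51 ± 0.10, adjusted p = 5.3e-05), and both TLR2.CD40 arrays lay above the other 10. Sema7a, a membrane-anchored semaphorin, read 6.90 and 6.73 against 5.09 and 5.10 (1.72 ± 0.07). Slamf1, a self-ligand receptor of B and T cells, was higher by 1.32 ± 0.11 and Fas, the death receptor that CD40 induces on B cells, by 1.30 ± 0.09, with 3.44 and 3.41 against 2.09 and 1.90. The OX40 ligand gene Tnfsf4 was higher by 1.15 ± 0.20. Icam1, an adhesion ligand, was higher by 0.94 ± 0.07, Cd274, which encodes PD-L1, by 0.89 ± 0.10 and Fcer2a, which encodes CD23, by 0.80 ± 0.06.

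Of the CD28 ligands, Cd86 read 1.87 and 1.79 on the TLR2.CD40 arrays and 1.54 and 1.21 on the TLR2.CD86 arrays, a difference of 0.35 ± 0.07 (adjusted p = 0.010) that was not called without the slide term (adjusted p = 0.084). Cd80 overlapped between the groups (0.23 ± 0.23, adjusted p = 0.49). The lower surface genes included Il10ra, a chain of the IL-10 receptor, with 2.81 and 2.79 against 3.70 and 3.26 (-0.88 ± 0.06), and Plaur, the urokinase receptor, with -0.74 ± 0.06. Without the slide term 12 genes of the list were higher and none was lower.

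Few cytokine genes differed by much. Of 39 tested, 13 were higher and 3 lower (median 0.16). Ebi3, the subunit shared by IL-27 and IL-35, read 5.02 and 5.02 on the TLR2.CD40 arrays against 3.55 and 3.27, a difference of 1.49 ± 0.06 (adjusted p = 4.7e-05). The other subunit of IL-27, Il27, was not called (0.17 ± 0.17). Tnfsf13b, which encodes the B cell survival factor BAFF, was higher by 0.75 ± 0.12 and Lta, lymphotoxin-alpha, by 0.52 ± 0.06. Lower were Clcf1, a B cell stimulating cytokine of the IL-6 family, with -0.51 and -0.73 against 0.25 and -0.10 (-0.82 ± 0.09), and Tgfb1 (-0.70 ± 0.07). Tnf (0.22 ± 0.07, adjusted p = 0.051), Il6 (0.16 ± 0.13) and Il10 (0.04 ± 0.06) were not called. The higher calls numbered 7 without TLR2.CD86 replicate 1, 6 without TLR2.CD86 replicate 2 and 8 without either TLR2.CD40 array.

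**Figure D2:**
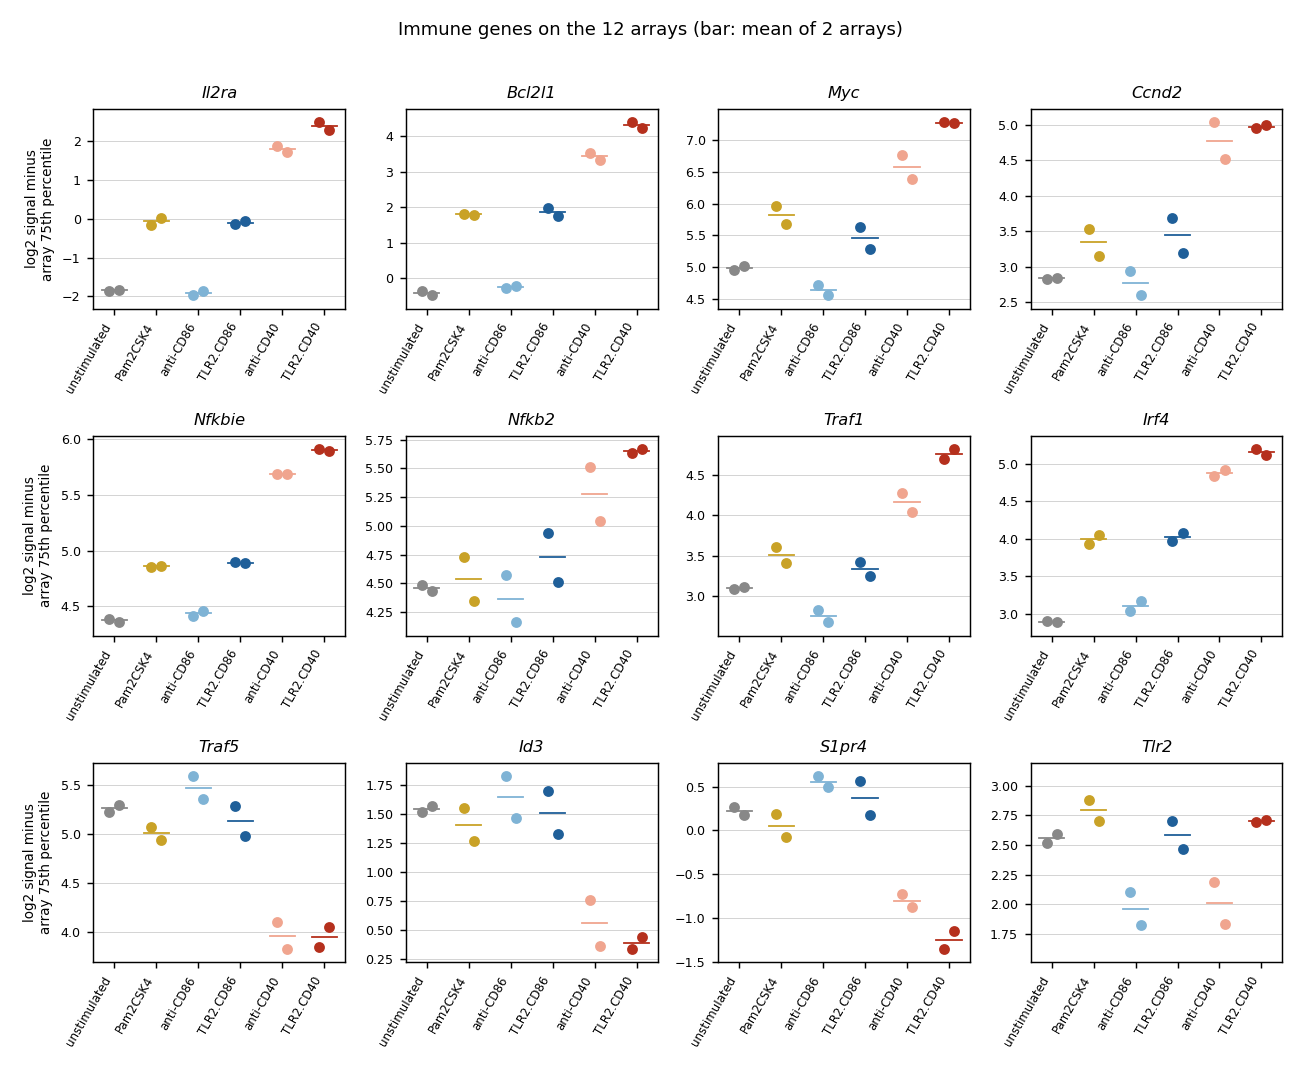
Log2 signal minus the array's 75th percentile for 12 immune genes in the 6 conditions; each point is 1 array and each bar the mean of 2 arrays, and every panel has its own vertical scale. In the panels of Il2ra and Bcl2l1 the TLR2.CD40 arrays lie above all others, anti-CD40 alone comes next and TLR2.CD86 lies near Pam2CSK4 alone; Traf5, Id3 and S1pr4 run the other way, and Tlr2 overlaps between the groups compared.

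Survival genes held one of the largest differences. Bcl2l1, which encodes the anti-apoptotic BCL-XL, read 4.39 and 4.22 on the TLR2.CD40 arrays and 1.98 and 1.75 on the TLR2.CD86 arrays. It was 5.24-fold higher (log2 2.39 ± 0.10, adjusted p = 5.7e-05). Differences of 2.10 and 2.22 came from the 2 further Bcl2l1 probes. The A1 genes Bcl2a1b and Bcl2a1a, near-identical copies whose probes may share transcripts, were higher by 1.50 ± 0.07 and 1.27 ± 0.08, the latter with 1 TLR2.CD40 array saturated. Bcl2 (0.08 ± 0.06) and Mcl1 (-0.09 ± 0.05), their anti-apoptotic relatives, were not called. Of 23 tested genes of the BCL2 family and the PIM kinases, 10 were higher and 5 lower (median 0.19). Members that promote death stood on both sides, with Bid higher by 0.76 ± 0.10 and Bcl2l11, which encodes BIM, by 0.54 ± 0.06, and with Bmf (-0.60 ± 0.11) and Bax (-0.39 ± 0.08) lower. The survival kinases Pim2 and Pim1 were higher by 0.62 ± 0.06 and 0.56 ± 0.08. Without TLR2.CD86 replicate 1 none of the 5 lower genes was called, and 2 or 3 were without either TLR2.CD40 array. The list also holds Gapt, which is no member of the family and was not well above background in either group.

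Growth genes were mostly higher in TLR2.CD40. Of 28 tested genes of the MYC and growth list, 16 were higher and 6 lower, and the median was 0.35. Myc read 7.28 and 7.27 against 5.63 and 5.28, a 3.19-fold difference (1.67 ± 0.07, adjusted p = 5.4e-05), with 1.30 and 1.72 from 2 further probes. Genes of ribosome assembly followed it, with Nolc1 higher by 1.33 ± 0.06, Rrs1 by 1.30 ± 0.07, Ppan by 1.20 ± 0.08 and Nop58 by 1.12 ± 0.07. Srm, the spermidine synthase, was higher by 0.98 ± 0.06 and Hk2, a hexokinase, by 0.90 ± 0.09, whereas the glycolytic genes Ldha (-0.13 ± 0.09) and Pgk1 (0.12 ± 0.05) were not called. Antagonists of MYC were among the lower genes, with Mxd4 and Mxd1 both at -0.49 and Mnt, whose groups overlapped, at -0.27. For Ncl, nucleolin, the brightest probe gave -0.91 ± 0.05 and its other 3 probes lay between -0.96 and 0.99, so no direction is given. The lower calls numbered 3 without TLR2.CD86 replicate 1 and 3 without TLR2.CD40 replicate 2.

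Cell cycle genes were split. Of 32 tested, 8 were higher and 6 lower (median 0.09). Together 43.75% were called, against 34.6% of all probes, so the counts alone set this list little apart. Under median scaling 1 gene was called higher and none lower. Ccnd2, the D cyclin induced when B cells leave rest, read 4.953 and 4.995 on the TLR2.CD40 arrays and 3.69 and 3.19 on the TLR2.CD86 arrays (1.32 ± 0.07, adjusted p = 8.4e-05). Ccnd3, the D cyclin of later B cell stages, went the other way, with 3.18 and 3.14 against 3.93 and 3.61 (-0.75 ± 0.07). The inhibitors of cyclin-dependent kinases were split too. Cdkn1a (p21) was higher, with 1.57 and 1.63 against 0.62 and 0.22 (0.97 ± 0.08), and Cdkn1b (p27), which marks resting cells, was lower (-0.67 ± 0.09). The replication licensing genes Mcm2 to Mcm5, Mcm7 and Mcm10 were not called, with differences between -0.12 and 0.25, and Pcna was not called (0.06 ± 0.07). Without TLR2.CD86 replicate 1 the lower calls numbered 3, and without TLR2.CD40 replicate 2 or TLR2.CD86 replicate 2 the higher calls numbered 5.

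Of 42 tested immediate early and feedback genes, 17 were higher and 5 lower (median 0.19). The higher ones were led by Gadd45b, a stress and NF-kB response gene, with 7.01 and 7.21 against 5.71 and 6.15 (1.21 ± 0.18), by Klf10 (1.06 ± 0.06) and by the MAP kinase phosphatase Dusp1 (1.03 ± 0.07). Lower were Btg2, an anti-proliferative gene (-0.83 ± 0.07), and Socs3, a brake on cytokine signalling (-0.75 ± 0.05). The classical first-wave factors Fos (0.19 ± 0.09) and Egr1 (-0.04 ± 0.10) were not called at 4 h. Klf2, Junb and Btg1 were called but saturated on all 4 arrays. The higher calls numbered 10 without TLR2.CD86 replicate 1, and the lower calls 9 without either anti-CD86 array.

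Of 37 tested interferon-induced genes, 9 were lower and 5 higher in TLR2.CD40 (median 0.02). That is 24.3% lower and 13.5% higher, against 15.1% and 19.5% of all probes. Irf7, a master regulator of type I interferon, was lower (-0.78 ± 0.22), as were Ddx58, which encodes the RNA sensor RIG-I (-0.63 ± 0.07), and Irgm1, an interferon-induced GTPase (-0.62 ± 0.11). Irf1 was higher by 0.51 ± 0.06 and Gbp5 by 0.46 ± 0.05, while the classical targets Isg15 (0.07 ± 0.07) and Ifit1 (0.25 ± 0.19) were not called. Ifnb1, interferon-beta itself, was higher by 1.07 ± 0.24 but well above background on only 1 of the 2 TLR2.CD86 arrays. The 9 lower calls fell to 3 without TLR2.CD86 replicate 1 and to 0 without the slide term, and the 5 higher calls to 2 or 3 without TLR2.CD40 replicate 1, TLR2.CD86 replicate 1 or TLR2.CD86 replicate 2.

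Of 38 tested genes of B cell identity, 18 were lower in TLR2.CD40 and 5 higher, with a median of -0.19. Id3, an inhibitor of E proteins, read 0.34 and 0.44 on the TLR2.CD40 arrays and 1.70 and 1.33 on the TLR2.CD86 arrays (-1.30 ± 0.06, adjusted p = 7.6e-05). Fcgr2b, the inhibitory Fc receptor, read 2.03 and 2.06 against 3.24 and 2.83 (-1.17 ± 0.08), and its other 2 probes gave -1.26 and -1.08. The identity factors Pax5 (-0.59 ± 0.08), Bach2 (-0.64 ± 0.07), Foxo1 (-0.52 ± 0.05) and Cd79a, a chain of the B cell receptor (-0.62 ± 0.06), were lower, whereas Ms4a1, which encodes CD20, was higher by 0.45 ± 0.07. Irf4, which is induced on activation and drives plasma cell fate at high levels, was higher, with 5.19 and 5.12 against 3.98 and 4.08 (1.18 ± 0.05, adjusted p = 5.9e-05). Prdm1, the plasma cell factor Blimp-1, was not called (0.40 ± 0.15, adjusted p = 0.080), and Sdc1, which encodes the plasma cell marker syndecan-1, was lower (-1.02 ± 0.10). The lower calls numbered 10 without TLR2.CD86 replicate 1 and 3 without the slide term, and the higher calls 3 without TLR2.CD86 replicate 1.

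Receptors that place B cells within the spleen differed in both directions. Of 24 tested trafficking genes, 5 were higher and 5 lower (median 0.04). That is 20.8% each way, near the 19.5% and 15.1% of all probes. Cxcr5, the receptor for the follicular chemokine CXCL13, read 7.81 and 7.82 against 6.91 and 6.63 (0.92 ± 0.06), and Gpr183 (EBI2), which guides activated B cells to the outer follicle, was higher by 0.72 ± 0.06. Of the sphingosine-1-phosphate receptors, S1pr4 was lower, with -1.36 and -1.15 against 0.56 and 0.17 (-1.74 ± 0.10, adjusted p = 0.00013). S1pr1, which governs exit and marginal zone position, was lower with 2.10 and 1.88 against 3.09 and 2.87 (-1.11 ± 0.09). Ccr6, the receptor for CCL20, was lower as well (-0.67 ± 0.08). Each direction counted 3 calls without TLR2.CD86 replicate 1, and the lower calls also numbered 3 without TLR2.CD40 replicate 2 or TLR2.CD86 replicate 2.

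Antigen presentation genes were split, with 5 higher and 7 lower of 27 tested (median 0.05). Together 44.4% were called, against 34.6% of all probes. Tap2, a chain of the peptide transporter for MHC class I, was lower, with 0.85 and 0.78 against 1.92 and 1.87 (-1.07 ± 0.07), and Ciita, the master regulator of MHC class II, was lower by 0.45 on the log2 scale (SE 0.06). H2-DMa, which helps load peptides on MHC class II, was higher by 0.58 ± 0.07. The lower calls numbered between 2 and 4 when any 1 of the TLR2.CD40, TLR2.CD86 or Pam2CSK4 arrays was left out. The list also contained Rab5c, a small GTPase of early endosomes.

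Rab5c and Ube2s had the highest differences among the named genes outside the liver lists. Rab5c read 5.60 and 5.59 on the TLR2.CD40 arrays and 2.69 and 2.44 on the TLR2.CD86 arrays, a 7.37-fold difference (2.88 ± 0.06, adjusted p = 7.4e-06). Ube2s, the chain-elongating ubiquitin enzyme of the anaphase-promoting complex, read 5.40 and 5.51 against 2.56 and 2.23, a 7.30-fold difference (2.87 ± 0.06, adjusted p = 7.4e-06). Each is measured by 1 tested probe, and the Rab5c homologues Rab5a (0.41 ± 0.07) and Rab5b (-0.84 ± 0.25) differed less. Zbtb46, a zinc finger factor known from dendritic cells, read 2.57 and 2.48 against 0.15 and 0.08 (2.33 ± 0.09), and its other 3 probes gave 1.49 to 2.12. The remaining genes of the 12 with the highest differences besides Il2ra and Bcl2l1 were Fam89a, Epb4.1l1, Olfr1394, Rasl11a, Glt28d2, Ephb1 and Kcnj14, with log2 differences of 2.09 to 2.42, and all but Olfr1394 and Kcnj14 were well above background on only 1 of the 2 TLR2.CD86 arrays.

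Among the 12 named genes with the lowest differences, 10 are known from liver and were not in the liver list used first (Es31, Gsta3, Ces3b, Mup4, Ces1c, Rgn, Mug1, Pzp, Mug2 and Agxt). All but Mup4 were not well above background on either TLR2.CD40 array, so that only bounds are given, Ces1c, a carboxylesterase, being at least 6.79-fold lower (adjusted p = 7.4e-06) and Pzp, a plasma protease inhibitor, at least 6.44-fold lower (adjusted p = 0.00026). The other two were Abi3, an adaptor of the actin-regulating ABI family, and Irs1, the insulin receptor substrate. Abi3 read 0.10 and 0.01 on the TLR2.CD40 arrays and 3.31 and 2.83 on the TLR2.CD86 arrays, a 9.07-fold difference (-3.18 ± 0.08, adjusted p = 8.3e-06). Irs1 read -1.88 and -1.85 against 1.01 and 0.71 (-2.82 ± 0.07, adjusted p = 1.2e-05). Hmox1, the haem-degrading enzyme induced by oxidative stress, read 1.02 and 1.12 against 3.64 and 3.30 (-2.57 ± 0.08), and Pip5k1c, a kinase of phosphoinositides, was lower by 2.06 on the log2 scale with its brighter probe while its second probe gave -0.09.

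The same contrast of antibodies without Pam2CSK4 used 4 other arrays and shared none with the first. It called 11005 probes (34.8%), 5050 (16%) higher and 5955 (18.8%) lower in anti-CD40 than in anti-CD86, and 7324 probes without anti-CD86 replicate 2. Under median scaling the median difference of all probes moved from 0.04 to -0.39 in this contrast, and the share of higher calls fell from 45.9% to 9.9%, so directions without Pam2CSK4 are relative to the 75th percentile. In both contrasts 6074 probes were called in the same direction, 55.6% of the calls with and 55.2% of those without Pam2CSK4, and 397 were called in opposite directions. Among the immune genes 91 of the 129 higher and 59 of the 80 lower genes were called the same way without Pam2CSK4, and 3 and 2 the opposite way. Traf1 (1.33 with and 1.40 without), Cd40 (0.99 and 1.14), Nfkbib (1.13 and 1.12), Traf5 (-1.30 and -1.51) and Id3 (-1.30 and -1.08) gave similar values in both.

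Whether Pam2CSK4 altered the CD40 against CD86 difference was tested by the difference of the 2 contrasts, which called 2416 probes (7.65%), 1392 (4.4%) with a higher value in the presence of Pam2CSK4 and 1024 (3.24%) with a lower one. The count fell to 395 under median scaling, with 45.8% of the calls higher against 57.6%, to 259 without the slide term and to 13 within slide 1. It was 497 without TLR2.CD86 replicate 1, 630 without anti-CD86 replicate 2, 902 to 947 without either TLR2.CD40 array or TLR2.CD86 replicate 2, 1188 to 1210 without any unstimulated or Pam2CSK4 array, and 1562 without anti-CD40 replicate 2. Of the 129 higher immune genes 22 were called, 15 of them with a smaller difference in the presence of Pam2CSK4. The log2 difference of Il2ra was 2.51 with and 3.71 without Pam2CSK4 (difference of the 2, -1.21 ± 0.14, adjusted p = 0.0085) and that of Bcl2l1 was 2.39 and 3.68 (-1.29 ± 0.14, adjusted p = 0.0068). In both genes the TLR2.CD86 arrays lay above anti-CD86 alone and near Pam2CSK4 alone. Sema7a, Ebi3, Ccnd2, Irf4, Tlr1, Nfkbid and both A1 genes followed the same pattern of a smaller difference with Pam2CSK4. Under median scaling none of these genes kept the call (adjusted p = 0.36 for Il2ra and 0.28 for Bcl2l1), and without TLR2.CD86 replicate 1 Bcl2l1 kept it and Il2ra did not (adjusted p = 0.051).

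**Figure D3:**
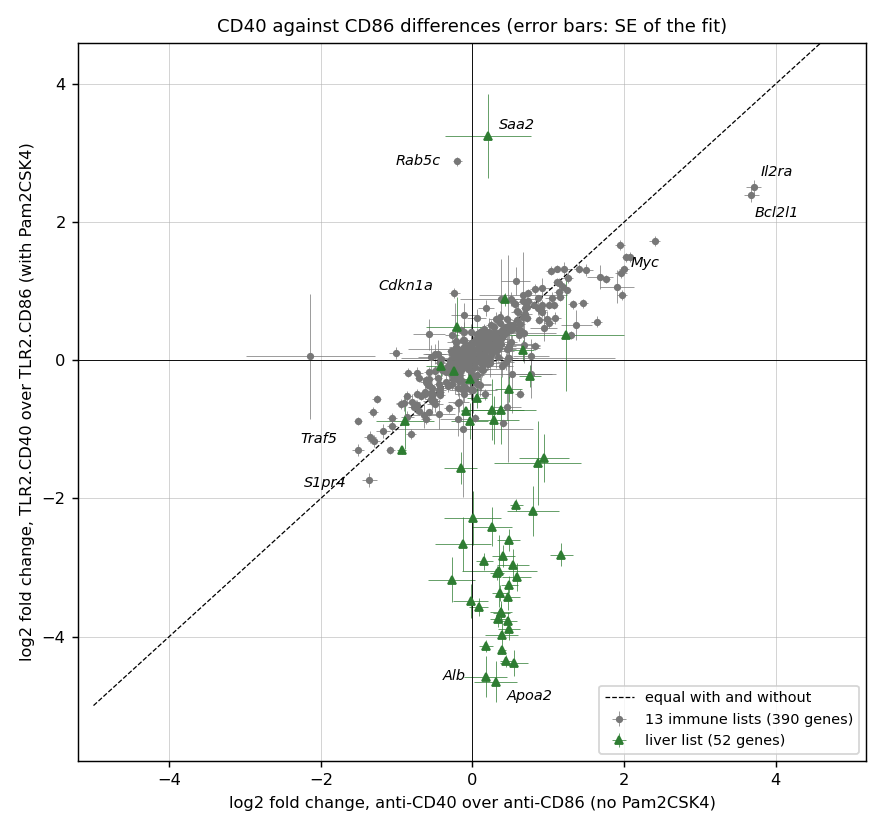
The log2 fold change of TLR2.CD40 over TLR2.CD86 (vertical) against that of anti-CD40 over anti-CD86 without Pam2CSK4 (horizontal) for 390 genes of the immune lists and 52 of the liver list; error bars are standard errors of the fit and the dashed line marks equal values. Immune genes lie near the line, with Il2ra and Bcl2l1 below it on the right and Rab5c and Cdkn1a above it, while most liver genes lie far below 0 on the vertical axis (median -2.63) and near 0 on the horizontal (median 0.36), with Saa2 and Saa1 above 0.

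Other genes differed in the presence of Pam2CSK4 and hardly or oppositely without it. Rab5c had 2.88 with and -0.20 without (difference of the 2, 3.08 ± 0.08, adjusted p = 2.9e-05), and Ube2s 2.87 and -0.15 (3.02 ± 0.09, adjusted p = 2.9e-05). For both genes the TLR2.CD40 arrays lay above and the TLR2.CD86 arrays below all other arrays. Lmnb1, which encodes lamin B1, gave 1.94 and 0.07, Chmp4b, a subunit of the membrane-severing ESCRT-III complex, 1.74 and -0.35, Aph1a, a subunit of gamma-secretase, 1.77 and -0.44, and Ddit4, an inhibitor of mTORC1, 1.64 and -0.17. Cdkn1a gave 0.97 and -0.24 (difference of the 2, 1.21 ± 0.10, adjusted p = 0.0026). In the other direction stood Hmox1 with -2.57 and -0.17, Surf6, a nucleolar protein, with -1.99 and 0.08, Zfp719, a zinc finger gene, with -2.001 and -0.03, and Abi3 with -3.18 and -1.31. Of these, within slide 1 alone only Rab5c kept the call (adjusted p = 0.0499), and without the slide term Cdkn1a lost it. Second probes of Chmp4b and Aph1a gave 0.69 for the TLR2.CD40 against TLR2.CD86 difference.

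**Figure D4:**
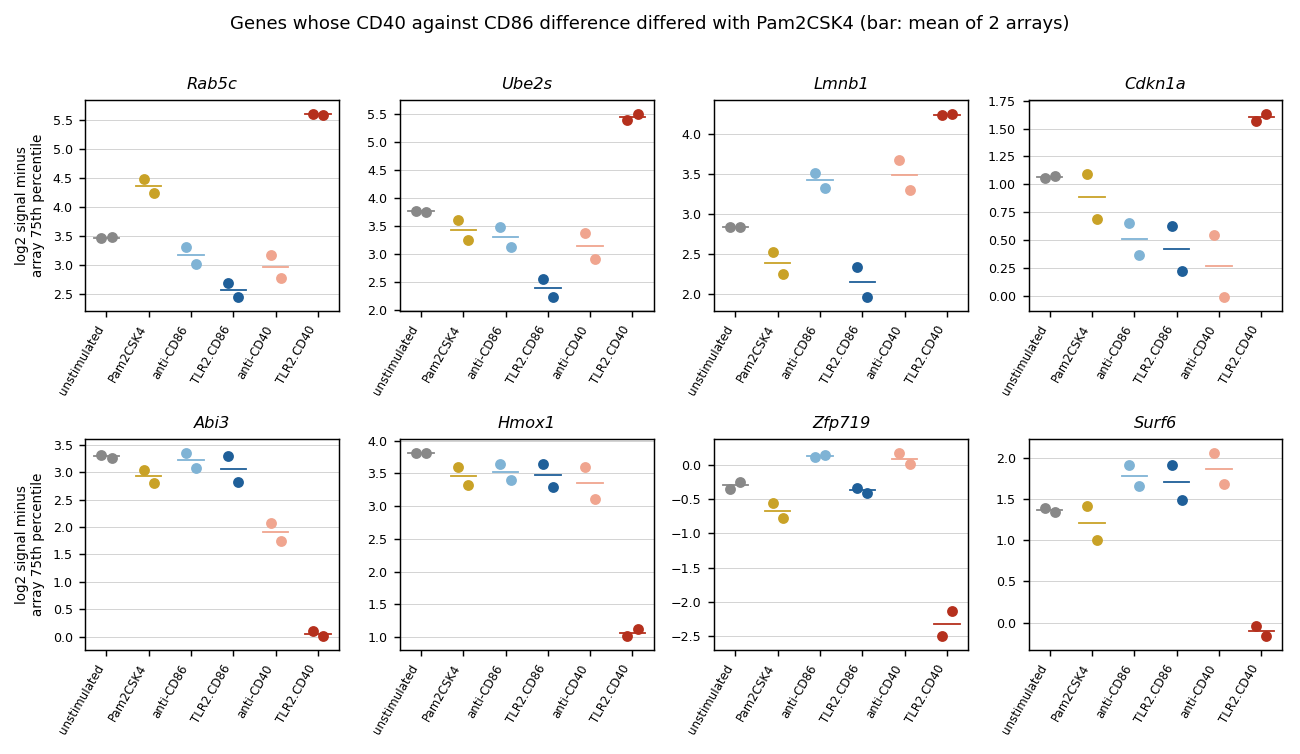
Log2 signal minus the array's 75th percentile for 8 genes whose CD40 against CD86 difference differed with Pam2CSK4; each point is 1 array and each bar the mean of 2 arrays, and every panel has its own vertical scale. The 2 TLR2.CD40 arrays lie apart from the other 10 in every panel, above them in the top row (Rab5c at 5.60 and 5.59) and below them in the bottom row (Hmox1 at 1.02 and 1.12), and anti-CD40 alone lies partway for Abi3.

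Liver transcripts made the largest differences of the comparison. The list held 83 genes that hepatocytes express strongly, of which 79 had a probe and 52 were tested. In TLR2.CD40 37 of the 52 were lower and 2 higher, with a median log2 difference of -2.63, and 36 of the 37 lay below all 10 other arrays. The share of all probes that lay below all 10 was not counted. The filter on dim probes kept 52 of the 79 with a probe, and the count is of those alone. A probe could pass this filter through other conditions alone. Of the 37 lower genes, 22 were not well above background on either TLR2.CD40 array, and 11 were measured on all 4 arrays compared. The median thus rests in part on signals near background. With all 4 arrays required to be well above background, 19 genes were tested, 11 of them lower and 1 higher. On the TLR2.CD40 arrays 20 and 25 of the 79 genes were well above background, against 44 to 59 on the other 10. The summed signal of the list, in units of the 75th percentile, was 21.8 and 22.9 on the TLR2.CD40 arrays, 54.8 and 65.7 on the TLR2.CD86 arrays and 50.8 to 98.0 over the other 10.

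Alb, serum albumin, read -2.47 and -3.47 on the TLR2.CD40 arrays and 1.63 and 1.26 on the TLR2.CD86 arrays. The other 8 arrays ranged from 1.25 to 2.20, so the TLR2.CD40 arrays alone stood apart, and the fitted log2 difference was -4.58 ± 0.30 (adjusted p = 0.00017), with only 1 of the 2 TLR2.CD40 arrays well above background. Where both TLR2.CD40 arrays were not well above background only a lower bound of the fold is given. Apoa2, an apolipoprotein of HDL, was at least 14.3-fold lower (adjusted p = 0.00017), Rbp4, the plasma retinol carrier, at least 9.46-fold (adjusted p = 5.7e-05), Fgg, a fibrinogen chain, at least 9.36-fold (adjusted p = 0.00013) and Mup20, a major urinary protein, at least 7.66-fold (adjusted p = 4.2e-05). The major urinary protein probes Mup1 and Mup2, whose genes are near-identical copies, were lower with log2 differences of -4.20 ± 0.05 and -4.36 ± 0.09. Serpina1d, an alpha-1-antitrypsin gene, had -3.66 ± 0.12 and Ahsg, fetuin-A, -3.08 ± 0.10.

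Not every gene of the list followed. Hp, haptoglobin, which myeloid cells also express, was bright everywhere and differed little (3.80 and 3.88 against 4.59 and 4.12, -0.74 ± 0.06), a call lost without the slide term (adjusted p = 0.18). The acute phase genes Saa2 and Saa1 went the other way. Saa2 read -0.71 and -0.61 on the TLR2.CD40 arrays and -4.41 and -3.78 on the TLR2.CD86 arrays (3.25 ± 0.61, adjusted p = 0.0078), and it was not well above background on one or both arrays of every other condition. That call was lost without TLR2.CD86 replicate 1. Saa1 was higher by 0.88 ± 0.10, a call lost without the slide term (adjusted p = 0.37). Orm1 and Serpinc1 overlapped between the groups.

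**Figure D5:**
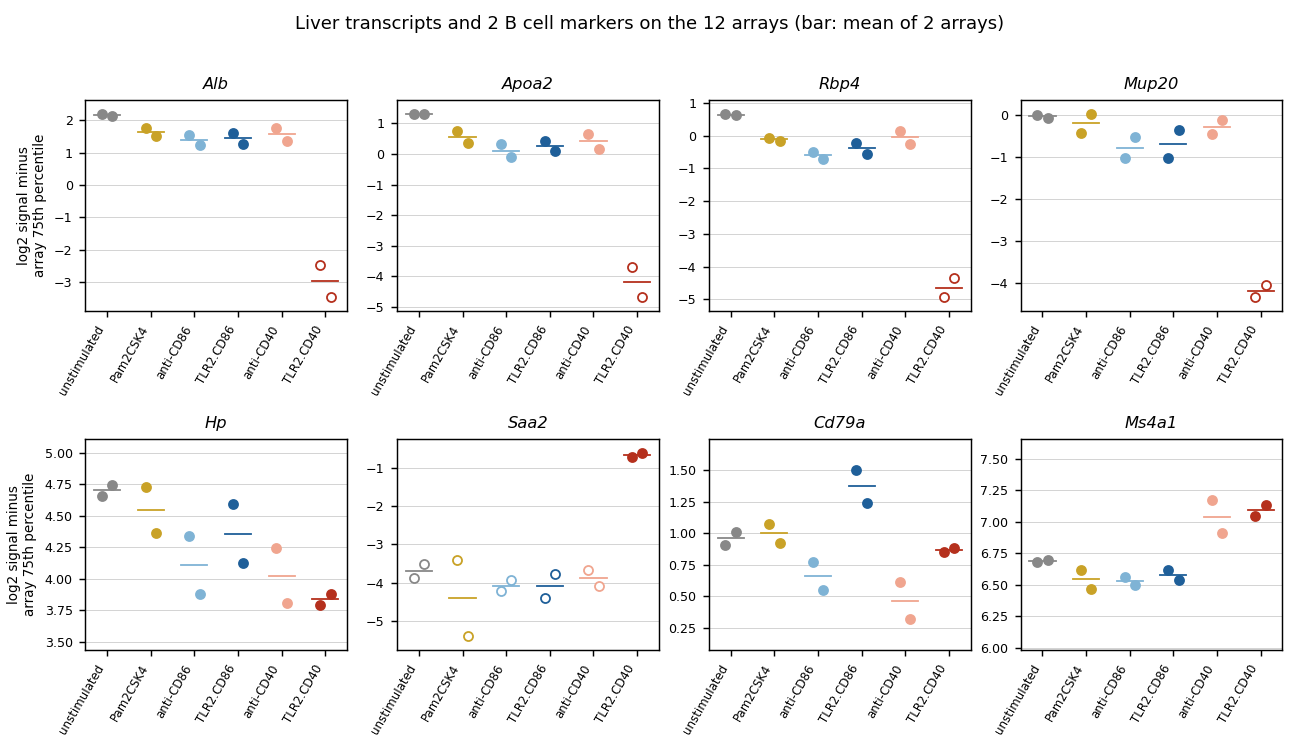
Log2 signal minus the array's 75th percentile for 6 genes of the liver list and the B cell markers Cd79a and Ms4a1; each point is 1 array, each bar the mean of 2 arrays, and open points mark a condition in which not both arrays were well above background. Alb lies at -2.47 and -3.47 on the TLR2.CD40 arrays and between 1.25 and 2.20 on the other 10, with Apoa2, Rbp4 and Mup20 alike, Saa2 runs the other way, and Ms4a1 stays between 6.47 and 7.17 throughout.

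Without Pam2CSK4 the liver genes did not follow this pattern. There 14 of the 52 genes were higher and 1 lower in anti-CD40, against 16% and 18.8% of all probes, with a median of 0.36. Under median scaling 1 was higher and 3 lower, and the median was -0.06, so no direction is given. The difference of the 2 contrasts was called for 34 genes, all with the lower value in the presence of Pam2CSK4, and under median scaling for 32 with a lower and 1 with a higher value. In the 10 arrays other than TLR2.CD40 the unstimulated arrays held the highest Alb (2.20 and 2.15) and Ahsg (2.27 and 2.37). In limma the lower liver calls depended little on the slide term, with 35 of the 37 made without it. Within slide 1 all 52 tested genes kept the direction of their difference. The calls did depend on the test and the arrays used. The methods' one way test, and a fit on only the arrays compared, called 0 of the 37, as they called 0 of all probes.

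A second list of liver genes, written after the values had been seen, had 70 tested genes, 33 lower and 4 higher (median -0.75), and 19 lower without TLR2.CD86 replicate 1. Both liver lists together supplied 53 of the 123 probes that were at least 4-fold lower in TLR2.CD40 (43.1%) and 35 of the 52 that were at least 8-fold lower (67.3%). Of the 123 and 52 lower probes, 87 and 32 were not well above background on either TLR2.CD40 array. The folds of these probes rest on signals near background. Of the probes at least 4-fold higher 1 of 50 was from these lists, and 13 of 50 were not well above background on either TLR2.CD86 array. Without the liver lists 592 probes were at least 2-fold lower and 675 at least 2-fold higher. As the second list was written with the values known, its counts and these shares describe the data and test nothing.

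The tested markers of other organs and cells were not mostly lower in TLR2.CD40, as the liver genes were. Over all probes 19.5% were higher and 15.1% lower. Of 9 tested genes of exocrine pancreas 1 was higher (Clps, 1.37) and none lower, and of 7 of kidney 1 was higher (Napsa, 0.24). Of 10 of skeletal muscle 3 were higher and 1 lower. These lists had 21, 20 and 20 genes with a probe, so many were too dim to test. The summed signal of the pancreas list was 2.37 on both TLR2.CD40 arrays and 1.88 to 3.74 on the other 10. A fall like that of the liver genes could hardly have been seen there. T cell markers had 2 of 12 higher, NK cell markers 2 of 9, myeloid markers 2 of 15 higher and 1 lower, and red cell and platelet markers 2 of 9 higher and 1 lower. Plasma cell markers had 3 of 6 higher and 1 lower, and the B cell markers 2 of 8 higher and 3 lower. Without the slide term none of the T cell, NK cell, myeloid or red cell and platelet markers was called. The summed signal of the 8 B cell markers was 906 and 1017 on the TLR2.CD40 arrays against 689 and 795 on the TLR2.CD86 arrays, with saturated Cd79b, Blnk and Cd74 included. The 4 arrays that carried the immune differences also carried the liver difference, and whether the one has a part in the other was not tested.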

How the data were processed

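RNA of RB cells was measured on 12 one-colour Agilent arrays, 2 for each of 6 conditions. The deposited scanner files hold spot intensity values from Feature Extraction 10.5.1.1, background-subtracted by the authors in the processed signal, and a second deposited table gives the authors' own log2 values, scaled per array. Here the log2 processed signal minus the array's 75th percentile was used, with control and outlier spots left out and spots of a probe averaged. The filter asked for both arrays of any condition to be well above background, which 31672 of 61307 probes met, and 31602 of these without missing values were tested. Of 40628 probes not made for noncoding RNA, 28136 matched a RefSeq accession (GRCm38.p6), which updated 3897 symbols.

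limma 3.58.1 in R 4.3.3 fitted a coefficient per condition and the slide on all 12 arrays (5 residual degrees of freedom), with Benjamini-Hochberg adjustment over all probes and calls at 0.05. The fit was also run on data simulated from its own coefficients and spread. That run checks the computation alone and lends the calls no support. A gene was read from its brightest tested probe. A probe not well above background on every array of a group gave only a bound, and one saturated in both groups gave no fold. The number of arrays limits the precision.

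The members and gene lists were chosen with earlier results of these data known, and the second liver list after the values were seen. The naming rule took the 12 highest and 12 lowest genes outside the tissue lists, up to 4 members per list, 12 fixed genes and the 10 brightest liver genes, and other genes named were chosen after their values were seen. A few genes that met the rule are not reported here. Alternatives covered scaling, background, filters, moderation, slide terms, the deposited table, the methods' one way test and leaving out each array.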

Additional observations from a re-analysis of the deposited data

Results flagged for a closer look

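The CD40 against CD86 difference with Pam2CSK4 differed from that without it for 2416 probes, and 48 genes that were looked at singly are given here. The values in brackets are the log2 difference with Pam2CSK4 minus the log2 difference without it, each past an adjusted p under 0.05 in limma.

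Immune genes with a smaller difference in the presence of Pam2CSK4 were Nfkbid (-0.51), Tlr1 (-0.63), Il2ra (-1.21), Sema7a (-0.68), Ebi3 (-0.54), Bcl2l1 (-1.29), Bcl2a1b (-0.58), Bcl2a1a (-0.70), Ccnd2 (-0.68) and Irf4 (-0.59). The smaller difference also held for Zbtb46 (-0.77) and Ccnd3 (0.57), the latter lower in both contrasts. Cdkn1a (1.21) was higher with Pam2CSK4 and lower without it. Irs1 (-0.54) was lower in both, more so with Pam2CSK4.

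Genes that were higher with Pam2CSK4 and near or below 0 without it were Rab5c (3.08), Ube2s (3.02), Aph1a (2.21), Chmp4b (2.09), Chtf8 (1.93), Lmnb1 (1.87), Ddit4 (1.81) and Zfp445 (1.75). Genes that were lower with Pam2CSK4 were Abi3 (-1.88), Hmox1 (-2.40), Surf6 (-2.07), Zfp719 (-1.97), Pex11g (-1.96), Tpra1 (-1.60) and Chrne (-1.55).

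Genes known from liver made up the rest. Of the liver list these were Hp (-0.65), Mup2 (-4.80), Serpina1d (-4.04), Mup1 (-4.59), Alb (-4.76), Ahsg (-3.40), Fabp1 (-4.02), Mup3 (-3.90) and Apoa2 (-4.96), and outside it Es31 (-4.17), Gsta3 (-4.16), Ces3b (-3.95), Mup4 (-4.22), Ces1c (-4.03), Rgn (-3.85), Mug1 (-3.78), Pzp (-3.81), Mug2 (-3.48) and Agxt (-3.30). Apoa2 and the genes outside the list other than Mup4 were not well above background on either TLR2.CD40 array, and Alb was on 1 of the 2, so the fitted values of these genes rest on signals near background and are no measure of size.

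Of the 48 genes, 32 were called without the slide term, 31 under median scaling, 4 within slide 1 and 31 whichever array was left out. Leaving out TLR2.CD86 replicate 1 ended the call for 16 genes, and leaving out anti-CD86 replicate 2 ended it for 12.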

How the results depend on the processing

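The counts of called probes were 10926 with Pam2CSK4, 11005 without it and 2416 for the difference of the contrasts, given in that order below where all 3 moved. They were 5480, 6283 and 238 with no filter on dim probes, 3888, 3197 and 259 without the slide term, 6539, 3291 and 13 on slide 1 alone, and 1338, 1366 and 558 with a minimum of 2-fold. On only the arrays compared they were 0 (10226 at an unadjusted p under 0.05), 1686 and 269. The methods' one way test, with no slide term, gave 0 (5264 at an unadjusted p under 0.05), 0 (3537) and 29, whereas limma gave the counts above. Median normalization gave 2106 and 395 for the first and the last, and trended, robust moderation gave 4208 for the last. Leaving out each array in turn gave 5424 to 11030, 7324 to 10219 and 497 to 2194, the lowest without TLR2.CD86 replicate 1, anti-CD86 replicate 2 and TLR2.CD86 replicate 1. The cause of these shifts was not tested. The deposited table, normexp, quantile normalization and a random slide block stayed within 1.5 times of all 3 counts.

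Same-numbered arrays correlated at 0.54 to 0.67 among the 4 conditions split over the slides and at -0.11 to 0.07 otherwise. In those 4 conditions the number coincides with the slide, so a pairing of their arrays cannot be told apart from the slide. A replicate block in place of the slide gave 6725, 5419 and 507 calls, and the replicate block beside the slide 8934, 10695 and 1319. Of 3033 values of single genes under an alternative, 2703 kept direction and side of the threshold and 326 missed the threshold. Iigp1 alone reversed, to 0.0073 (adjusted p = 0.949) under normexp.

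Each condition had 2 arrays, and only TLR2.CD86 of the 2 groups compared spanned both slides. Liver genes near background give bounds, and saturated probes give no fold.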
